A study of Mus musculus with 32 samples.

Results

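The interleukin and TNF superfamily genes were followed through the livers of wildtype (WT) and Cyp2b-null mice that ate normal chow (ND) or CDAHFD, a diet rich in fat, free of choline and made up with L-amino acids, over 8 weeks. The members were all rows of both raw count tables whose symbol is Il followed by a digit or begins with Tnf, which gave 125 of 41585 rows. Diet and genotype effects were tested for members that reached at least 1 CPM, the count scaled to a common library size, in at least 4 libraries of the same sex, and 59 members passed in females and 56 in males. Of the 125 members, 20 had 0 counts in all 32 libraries and 46 never exceeded 3 counts in any library.

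All mice were C57BL/6 (C57Bl/6J in the study's methods) and 10 weeks old when the diets began. The 8 groups were ND-fed WT, CDAHFD-fed WT, ND-fed Cyp2b-null and CDAHFD-fed Cyp2b-null mice of each sex, with 4 liver libraries per group. CDAHFD holds 62% fat and 0.1% methionine and lacks choline, and in mice it leads to steatohepatitis with fibrosis. Cyp2b-null mice lack Cyp2b9, Cyp2b10 and Cyp2b13 in all tissues after CRISPR/Cas9 editing, whereas the WT mice were bought from a supplier, so that genotype and the origin of the mice cannot be told apart. Nothing in the labels says that the 4 libraries of a group came from separate animals, and p-values measure the spread between these libraries, which may in part be technical.

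Interleukins and TNF superfamily ligands are secreted or membrane-bound signals of immune cells, and most interleukins act through receptors built from a ligand-binding chain and a shared signaling chain. IL-1 family and TNF receptors lead to NF-kB, whereas most other interleukin receptors lead to Janus kinases and STAT factors. In liver, Kupffer cells, recruited macrophages and lymphocytes make most of the ligands, hepatocytes carry receptors for IL-1, IL-6 and TNF, and both sides are held back by decoy receptors, a receptor antagonist and the ubiquitin-editing enzyme Tnfaip3.

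Library totals ran from 2906410 to 10167000 counts. Cyp2b9 had 683 to 3530 counts in WT females and 2 to 8 in Cyp2b-null females, and among CDAHFD-fed males WT livers held 118 to 364 counts of it, Cyp2b-null livers 2 to 7. In ND-fed males Cyp2b9 was low in both genotypes, and there WT livers held 33 to 97 counts of Cyp2b10, Cyp2b-null livers 1 to 9. Of 4 hepatocyte markers, Alb, Apoa1, Ttr and Serpina1c, none was absent, and their summed level was 101100 to 187100 CPM in ND-fed and 50530 to 113400 CPM in CDAHFD-fed libraries. Replicate 3 of the CDAHFD-fed Cyp2b-null females stood apart from the other 3 libraries of its group, with a chi-square per degree of freedom of 23.3 to 29.7 against them, while those 3 differed from one another by 3.34 to 8.96. Distances were also wide in 2 male groups, where ND-fed WT replicate 2 differed from the other 3 libraries of its group by 19.1 to 62.4 and CDAHFD-fed Cyp2b-null replicate 3 by 23.6 to 65.4.

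Markers of other cells moved with diet. The leukocyte marker Ptprc was at 3.70 to 14.4 CPM in ND-fed and 19.4 to 47.1 CPM in CDAHFD-fed libraries, and the ranges did not overlap. The summed level of 4 dendritic cell markers was 1.0 to 4.06 CPM on ND and 23.9 to 71.0 CPM on CDAHFD, and that of 5 stellate cell markers was 71.4 to 136 CPM on ND and 174 to 263 CPM on CDAHFD. Of these, Siglech, Itgax, Col1a1, Pdgfrb and Acta2 were called higher in each genotype and sex (edgeR, adjusted p under 0.05). Flt3 was called in males alone, Xcr1 in Cyp2b-null females alone and Reln in Cyp2b-null males alone. Lrat was never called. The summed level of 6 macrophage and Kupffer cell markers overlapped between the diets in females, at 192 to 340.1 CPM on ND and 278 to 399.7 CPM on CDAHFD, but not in males, where ND-fed libraries held 106 to 194 CPM and CDAHFD-fed libraries 219.9 to 468 CPM. That sum joined opposite changes. Itgam, Cd68, Adgre1 and Csf1r were higher and Timd4 was lower on CDAHFD in each genotype and sex (edgeR, adjusted p under 0.05). The 4 neutrophil markers summed to 0 to 1.95 CPM on ND and 2.80 to 14.7 CPM on CDAHFD, with Ly6g and Mpo never above 3 counts. T cell markers (6 genes) summed to 2.0 to 4.94 CPM on ND and 1.87 to 9.26 CPM on CDAHFD, with Trac never above 3 counts, and the diets stood apart in Cyp2b-null females alone. NK cell markers (3 genes, 0.415 to 6.28 CPM over all libraries) were higher on CDAHFD without overlap in Cyp2b-null mice of both sexes, and B cell markers (4 genes, 1.07 to 10.2 CPM) overlapped in each pair of groups. Endothelial markers (4 genes) were lower on CDAHFD in females, at 188 to 246 CPM on ND and 133 to 179.8 CPM on CDAHFD, and overlapped in males. Cholangiocyte markers (4 genes) were higher in females, at 5.41 to 8.51 CPM on ND and 10.4 to 22.2 CPM on CDAHFD, and overlapped in males. The part of these cells in the member results was not tested, and in whole liver more RNA of a gene per cell and more cells that make it cannot be told apart.

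CDAHFD changed many of these genes, almost always upward. In WT females 24 of 59 tested members were called (edgeR quasi-likelihood test, adjusted p under 0.05 over all genes), 21 higher and 3 lower, whereas 22.3% of all 14826 genes tested were called, 12.9% higher and 9.39% lower. In Cyp2b-null females the count was also 24 of 59, with 21 higher and 3 lower, against 28.3% of all genes, 15.6% higher and 12.6% lower, and it was 26 without CDAHFD-fed replicate 3. In males 38 of 56 members were called in WT mice, 35 higher and 3 lower, against 31.5% of all genes (17.5% higher and 14% lower), and 34 were called without ND-fed replicate 2. In Cyp2b-null males 36 of 56 were called, 32 higher and 4 lower, against 35.8% of all genes (19.7% higher and 16.1% lower), and 32 were called without CDAHFD-fed replicate 3. The median log2 change of the tested members was 0.62 in WT females, 0.74 in Cyp2b-null females, 1.24 in WT males and 1.14 in Cyp2b-null males, while the median over all genes lay between -0.016 and 0.035. Groups did not overlap for 22 members in WT females, 22 in Cyp2b-null females, 32 in WT males and 36 in Cyp2b-null males, against 24.5%, 28.9%, 27.4% and 35.5% of all genes. A member that passed the filter only through its CDAHFD-fed libraries had to differ. Il7r, Il15, Il21r, Il1rl2, Tnfrsf10b and Tnfrsf13b, which had few ND-fed counts, are open to this. So are others with ND-fed levels near or under 1 CPM, among them Il33 in males. The folds and p-values of such members are not independent of the filter. With members that passed in ND-fed libraries alone the counts were 19 and 20 of 44 in WT and Cyp2b-null females, against 21.7% and 28% of all genes that passed in the same way. In males these counts were 24 and 23 of 36 in WT and Cyp2b-null mice, against 30% and 34.3% of all genes. Without scaling for composition, the median log2 change of all genes moved to between 0.295 and 0.38 and the share of member calls that were higher moved from 87.5% to 100% in WT females (33 higher, 0 lower).

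**Figure D1:**
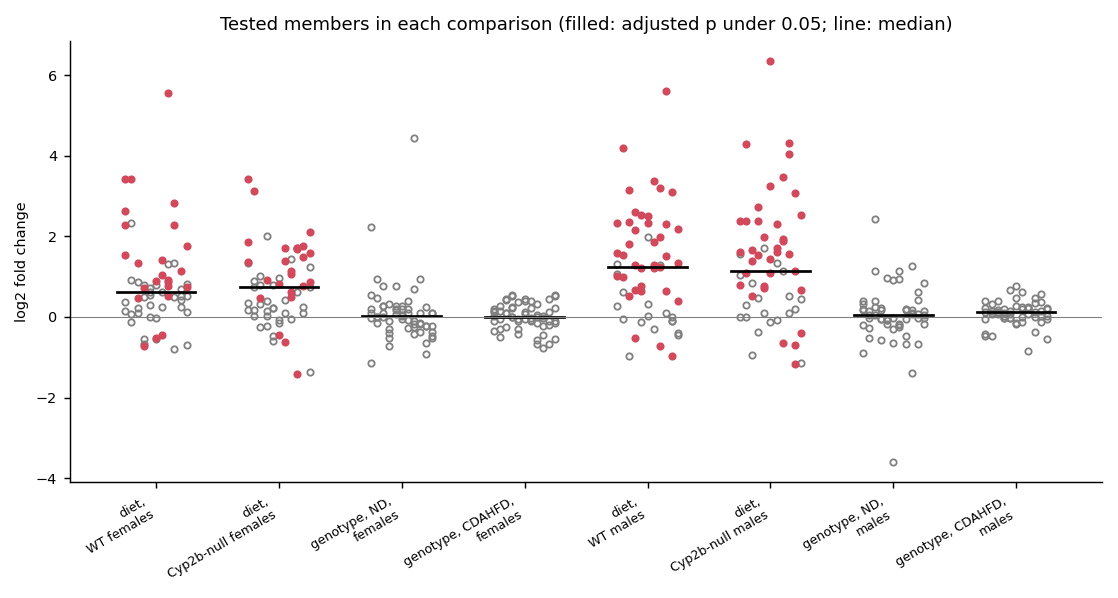
Log2 fold change of each tested member (1 point per gene) in the 4 diet comparisons (CDAHFD over ND) and the 4 genotype comparisons (Cyp2b-null over WT), with filled points for an adjusted p under 0.05 and a line at the median. The diet columns hold 24, 24, 38 and 36 filled points and the genotype columns hold 0.

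Calls were largely shared between groups of mice that had no library in common, as were those of all genes. Of the 24 members called in WT females, 23 were also called in WT males (95.8% of the first list and 60.5% of the second), compared with 75.6% and 54.1% for all genes. Within a sex, 19 members were called in both genotypes of females (79.2% of each list) and 31 in both genotypes of males (81.6% of the WT and 86.1% of the Cyp2b-null list). Over all genes these shares were 71.3% of the WT and 56.2% of the Cyp2b-null list in females and 77.7% and 68.5% in males. Between Cyp2b-null females and males 20 calls were shared (83.3% and 55.6%, and 66.1% and 53% for all genes). The shared calls of members had the same sign in each of these 4 pairs, as did nearly all those of all genes. Over all genes the sign was the same for 2352 of 2354 shared calls within females and 3589 of 3590 within males. Between the sexes it was the same for 2424 of 2446 in WT and 2688 of 2725 in Cyp2b-null mice. Several shares were near those of all genes. Within a sex these were 81.6% of the WT male and 79.2% of the WT female list, against 77.7% and 71.3%. Between the sexes they were 60.5% and 55.6% of the male lists, against 54.1% and 53%. In all, 46 members were called in at least 1 of the 4 comparisons and 0 had opposite calls. Opposite calls were also rare over all genes, as the signs above show. These counts, and those of members called in all 4, were not taken over all genes. Whether they are particular to the members was thus not tested. The 17 members called higher in all 4 were Il1rn, Il18bp, Il7r, Il2rg, Il10ra, Il10rb, Il22ra1, Tnfsf12, Tnfrsf1a, Tnfrsf10b, Tnfrsf11a, Tnfrsf12a, Tnfrsf21, Tnfaip1, Tnfaip3, Tnfaip8 and Tnfaip8l2, and the 1 called lower in all 4 was Il1rap.

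**Figure D2:**
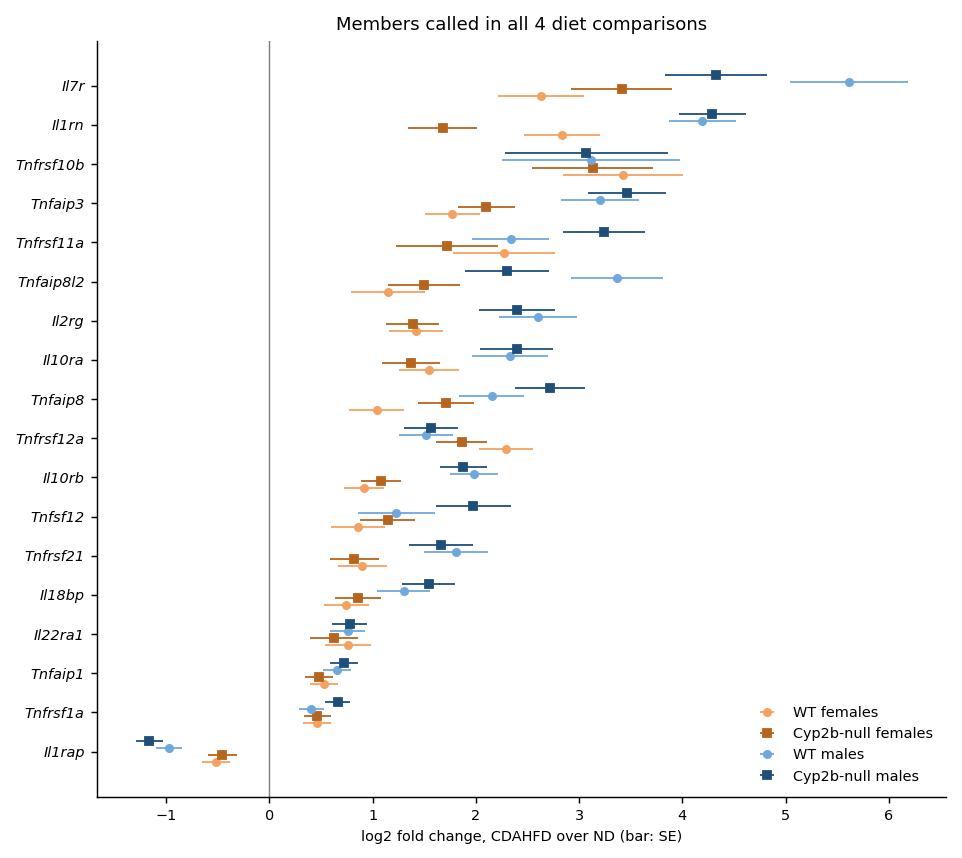
Log2 fold change between CDAHFD and ND with its SE for the 18 members called in all 4 diet comparisons, with circles for WT, squares for Cyp2b-null, orange for females and blue for males. The change furthest to the right was 5.61, for Il7r in WT males, and Il1rap lay to the left of 0 in each comparison.

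Among ligands and their inhibitors, 9 of 40 members could be tested in each sex, and the antagonist Il1rn had the largest rise in 3 of the 4 comparisons, the exception being Cyp2b-null females, where Il15 rose by log2 1.77 and Il1rn by log2 1.68. Il1rn (chromosome 2, 24336860 to 24351491, GRCm38.p6) encodes the IL-1 receptor antagonist, which occupies the IL-1 receptor without signaling. In WT females Il1rn was at 1.60, 7.02, 7.43 and 4.32 CPM on ND and at 25.1, 41.2, 24.9 and 42.9 CPM on CDAHFD. In WT males it was at 0.905, 1.95, 2.16 and 0.430 CPM on ND and at 16.2, 30.4, 24.9 and 35.9 CPM on CDAHFD. Each CDAHFD-fed library was above each ND-fed library of its sex, and the CDAHFD-fed levels of the sexes overlapped. The log2 change was 2.84 (SE 0.37, adjusted p = 8.49e-06) in WT females and 4.19 (SE 0.33, adjusted p = 3.80e-09) in WT males (edgeR, n = 4 per group). Cyp2b-null mice showed the same direction, from 8.42 ± 5.57 to 28.9 ± 3.89 CPM (SD, n = 4) in females and from 1.44 ± 0.878 to 28.6 ± 3.16 CPM (SD, n = 4) in males.

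**Figure D3:**
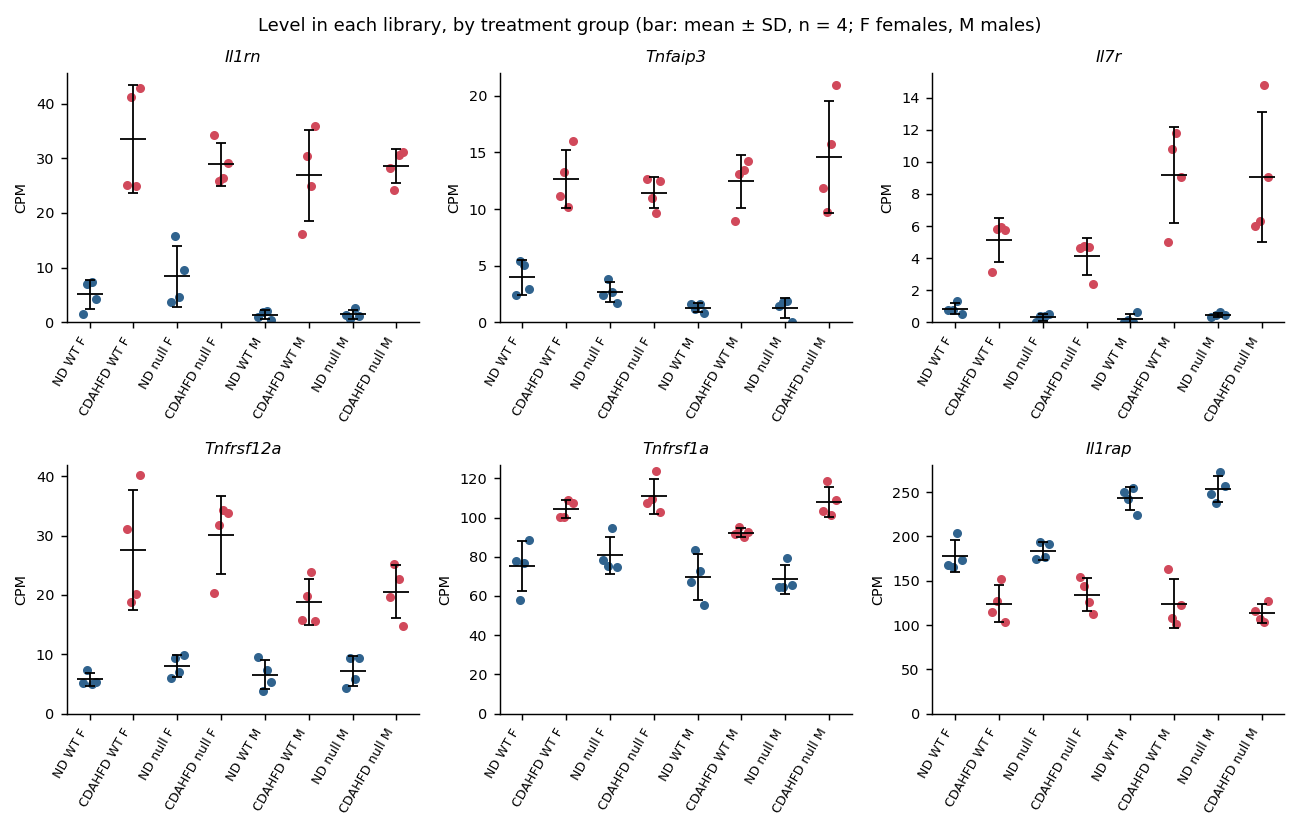
CPM of Il1rn, Tnfaip3, Il7r, Tnfrsf12a, Tnfrsf1a and Il1rap in each of the 32 libraries by group, with blue for ND, red for CDAHFD and bars for the mean and SD of 4 libraries. In all 6 panels the ND-fed and CDAHFD-fed libraries of a genotype and sex did not overlap, with red points above blue except for Il1rap.

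Il18bp, a soluble decoy that binds IL-18, rose from 15.4 to 25.2 CPM in WT females (log2 change 0.75, adjusted p = 0.0169) and from 5.75 to 14.4 CPM in WT males (log2 change 1.30, adjusted p = 0.000442, edgeR). Its target went the other way in males. Il18, made by macrophages and epithelial cells, was at 10.7, 4.71, 10.5 and 6.66 CPM in ND-fed WT males and at 5.78, 4.49, 4.36 and 5.40 CPM in CDAHFD-fed WT males, and these groups overlapped. It fell by 0.71 on the log2 scale in WT males (SE 0.25, adjusted p = 0.0331) and by 0.64 in Cyp2b-null males (SE 0.24, adjusted p = 0.0413). Both calls were fragile, being lost in 4 of 8 and 7 of 8 edgeR fits that left out 1 library, with adjusted p up to 0.129 in WT males without ND-fed replicate 3 and up to 0.102 in Cyp2b-null males without ND-fed replicate 2. In females Il18 was 12.4 ± 2.19 CPM on ND and 8.38 ± 1.41 CPM on CDAHFD in WT mice (SD, n = 4), which did not pass the test (adjusted p = 0.0744).

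The agonists of the IL-1 receptor changed less than the antagonist. Il1a, an alarmin released by dying cells, rose in WT males from 2.05 ± 1.14 to 5.22 ± 1.39 CPM (SD, n = 4, log2 change 1.34, SE 0.37, adjusted p = 0.00754) and had no call in the other 3 comparisons, where the log2 changes were 0.41 to 0.62. Il1b, the inflammasome-processed agonist, was called in WT males (log2 change 1.87, SE 0.63, adjusted p = 0.0265), and that call was lost without any 1 of ND-fed replicates 1 and 4 and CDAHFD-fed replicates 3 and 4 (adjusted p = 0.0527 to 0.115). In Cyp2b-null males Il1b had a log2 change of 1.34 and an adjusted p of 0.0512, and it was called under 6 of 7 alternatives (adjusted p = 0.0149 to 0.0853) and in 2 of 8 fits without 1 library. In females the log2 change was 0.87 in WT and 1.01 in Cyp2b-null mice, with overlapping groups. Antisense Il1bos overlaps the Il1b locus and the strand setting of the counting is not given in the sources used here, so their reads may not be separated.

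Il33, an alarmin of endothelial and stromal nuclei, rose in 3 of the 4 comparisons. In WT males it was at 0.724, 0.487, 1.22 and 1.29 CPM on ND and at 3.36, 5.51, 4.71 and 3.48 CPM on CDAHFD. In Cyp2b-null males it was at 0.875, 0.895, 0.830 and 0.654 CPM on ND and at 3.64, 4.81, 6.69 and 4.03 CPM on CDAHFD, so that no library of either diet crossed into the other. Most of the ND-fed male libraries were below the 1 CPM of the filter. The male folds, p-values and lack of overlap are thus not independent of it. The log2 changes were 2.18 (SE 0.35, adjusted p = 6.15e-05) in WT males, 2.54 (SE 0.36, adjusted p = 8.12e-06) in Cyp2b-null males and 1.33 (SE 0.33, adjusted p = 0.00513) in WT females. In Cyp2b-null females the groups overlapped, at 2.21 to 3.41 CPM on ND and 3.10 to 5.76 CPM on CDAHFD, and the log2 change of 0.78 was not called (adjusted p = 0.0705, and 0.0395 without CDAHFD-fed replicate 1).

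Il15, a survival factor for NK and memory T cells, was called in WT males and Cyp2b-null females. Over 4 libraries it summed to 3 counts in ND-fed and 31 counts in CDAHFD-fed WT males, a ratio of 9.93 with a counting interval of 3.10 to 50.7. In Cyp2b-null females it went from 1.13 ± 0.906 to 3.79 ± 0.291 CPM (SD, n = 4, log2 change 1.77, adjusted p = 0.00789), and in WT females from 2.17 ± 1.76 to 2.81 ± 1.02 CPM without a call. Il34, an alternative ligand of the Csf1 receptor, was called higher in both male comparisons and in neither female one (log2 change 1.28 in WT and 1.71 in Cyp2b-null males), and its sex difference was not called (adjusted p = 0.765 in WT and 0.127 in Cyp2b-null mice, edgeR).

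Several signature cytokines were hardly counted. Tnf had 0 counts in all 32 libraries, which allows up to 3 counts per library, or 0.245 to 1.17 CPM at these totals. Il6 had 0 or 1 count in every library, Il10 0 to 2, and Tnfaip6, a matrix-binding protein induced by TNF, 0 to 5. None of these 4 passed the filter. For Tnf, Il6 and Il10 no change was detectable at this depth. Tnfaip6 summed to 0 counts in ND-fed and 11 in CDAHFD-fed Cyp2b-null females, at least 2.60-fold higher against a floor of 3 counts over the group, with a counting interval starting at 1.78.

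The IL-1 receptor side held the member that fell in every comparison. Il1rap (chromosome 16, 26581509 to 26730128) encodes the accessory chain that IL-1, IL-33 and IL-36 receptors need to signal. In WT males Il1rap was at 250.4, 242, 254 and 224 CPM on ND and at 163, 108, 102 and 122 CPM on CDAHFD. In WT females it was at 168, 166, 204 and 173 CPM on ND and at 115, 127, 152 and 103 CPM on CDAHFD. All ND-fed libraries were above all CDAHFD-fed libraries in each sex and genotype, and the ND-fed level was higher in males than in females without overlap. Il1rap fell by 0.97 on the log2 scale in WT males (SE 0.13, adjusted p = 5.72e-06), by 1.16 in Cyp2b-null males (SE 0.13, adjusted p = 4.51e-07), by 0.52 in WT females (SE 0.14, adjusted p = 0.00865) and by 0.46 in Cyp2b-null females (SE 0.14, adjusted p = 0.0167, edgeR). The call in Cyp2b-null females was lost without CDAHFD-fed replicate 4 (adjusted p = 0.0601), and both female calls were lost without scaling for composition, which moves all genes upward as given above.

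Il1r1, the signaling receptor for IL-1, rose a little in males, by log2 0.51 (SE 0.17, adjusted p = 0.0222) in WT and log2 0.53 (SE 0.16, adjusted p = 0.0155) in Cyp2b-null mice. The WT call was lost without ND-fed replicate 3 or 4 or CDAHFD-fed replicate 4 (adjusted p = 0.0506 to 0.106). In WT females the log2 change of Il1r1 was 0.69 without a call (adjusted p = 0.141, and 0.00295 to 0.15 under 7 alternatives, of which 3 called it), and in Cyp2b-null females it was 0.24 (adjusted p = 0.626). Il1rl2, the IL-36 receptor, was rare. It had 0 counts in each ND-fed Cyp2b-null male library and 11, 11, 16 and 11 counts in the CDAHFD-fed ones, at least 11.3-fold higher against a floor of 3 counts over the group, and it was not called in the other 3 comparisons.

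Receptors of the common gamma chain family bind IL-2, IL-4, IL-7, IL-9, IL-15 and IL-21 on lymphocytes and some myeloid cells, and 6 of 8 members were tested. Il7r (chromosome 15, 9506159 to 9529941), the IL-7 receptor of T cells and some dendritic cells, had the largest fitted rise in WT males. It had 0, 1, 0 and 3 counts in ND-fed and 27, 53, 103 and 52 counts in CDAHFD-fed WT males, or 0.202 ± 0.305 and 9.18 ± 2.99 CPM (SD, n = 4). In Cyp2b-null females it had 0, 2, 1 and 3 counts on ND and 18, 29, 26 and 19 counts on CDAHFD. No ND-fed library reached the level of any CDAHFD-fed library of its genotype and sex. The log2 changes were 5.61 (SE 0.57, adjusted p = 1.62e-07) in WT males, 4.33 (SE 0.49, adjusted p = 5.30e-07) in Cyp2b-null males, 2.63 (SE 0.42, adjusted p = 7.55e-05) in WT females and 3.41 (SE 0.49, adjusted p = 2.26e-05) in Cyp2b-null females. In WT males and Cyp2b-null females only the CDAHFD-fed libraries reached the 1 CPM of the filter. The folds and p-values there are thus not independent of it.

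Il2rg, the shared gamma chain itself, rose from 1.06 to 6.66 CPM in WT males (log2 change 2.60, adjusted p = 1.42e-05) and from 3.83 to 10.1 CPM in WT females (log2 change 1.42, adjusted p = 0.000363). Il21r, the IL-21 receptor, summed to 3 counts in ND-fed and 46 in CDAHFD-fed WT females, a ratio of 12.6 (counting interval 4.06 to 63.5), and to 2 and 64 counts in Cyp2b-null males, a ratio of 22.1 (5.88 to 187). It was also called in WT males, a call lost without ND-fed replicate 3 (adjusted p = 0.0537), and not in Cyp2b-null females (adjusted p = 0.0897, and 0.0466 without CDAHFD-fed replicate 3). Il15ra, which presents IL-15 to neighboring cells, was lower in Cyp2b-null males, from 18.5 ± 2.76 to 11.2 ± 2.997 CPM (SD, n = 4), and fell by 0.70 on the log2 scale (SE 0.23, adjusted p = 0.0222). That call was lost without ND-fed replicate 3 or 4 or CDAHFD-fed replicate 2 or 4 (adjusted p = 0.0590 to 0.0821), and in the other 3 comparisons Il15ra had log2 changes of -0.14 to -0.02.

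Receptors of the IL-6 and IL-12 family formed the one group whose median change was below 0 in all 4 comparisons, from -0.70 in WT females to -0.04 in WT males, over 5 tested members, where the medians of all genes were -0.016 to 0.035. Of these 5, 1 was called lower in WT females, Cyp2b-null females and WT males each, and 0 in Cyp2b-null males. In the same order 9.39%, 12.6%, 14% and 16.1% of all genes were called lower, so these counts do not set the group apart. Without scaling for composition the log2 changes of Il6st in WT mice and of Il6ra and Il11ra1 in Cyp2b-null males turned positive. Il6ra (chromosome 3, 89869324 to 89913196) binds IL-6 on hepatocytes and drives the acute phase response. In Cyp2b-null females it was at 45.3, 70.0, 45.1 and 54.6 CPM on ND and at 26.9, 26.0, 9.69 and 18.7 CPM on CDAHFD, with no overlap. It fell by 1.42 on the log2 scale (SE 0.29, adjusted p = 0.000959). In WT females it was at 38.1, 104, 35.1 and 63.1 CPM on ND and at 31.1, 37.6, 35.1 and 33.9 CPM on CDAHFD, where the groups overlapped and the log2 change of -0.79 missed the threshold (SE 0.29, adjusted p = 0.0508). It was called there under 5 of 7 alternatives (adjusted p = 5.80e-05 to 0.254) and in 2 of 8 fits without 1 library, and the interaction of diet and genotype was not called. In males Il6ra was 30.4 to 34.5 CPM in all 4 group means and was not called.

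Il6st, the gp130 chain shared by the family, was not called in any diet comparison. Its log2 change was -0.01 (SE 0.19) in WT females, -0.48 (SE 0.19) in Cyp2b-null females, -0.04 (SE 0.16) in WT males and 0.30 (SE 0.16) in Cyp2b-null males. In CDAHFD-fed Cyp2b-null females it was at 115, 112, 53.1 and 114 CPM, the low value being that of replicate 3. Il11ra1, the IL-11 receptor, fell by 0.73 on the log2 scale in WT females (SE 0.20, adjusted p = 0.0104) and by 0.52 in WT males (SE 0.15, adjusted p = 0.0127). These calls were lost without ND-fed replicate 4 in females (adjusted p = 0.0570) and ND-fed replicate 2 in males (adjusted p = 0.0711). Both were also lost without scaling for composition (adjusted p = 0.118 and 0.567, edgeR). Il11ra1 shares reads with near-identical gene copies, so its level is uncertain.

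**Figure D4:**
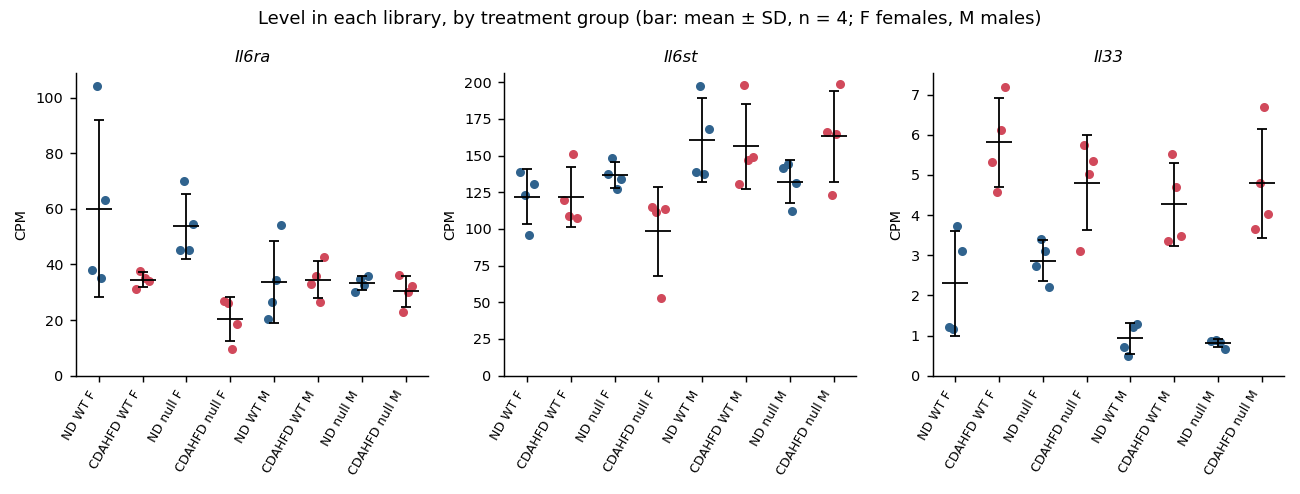
CPM of Il6ra, Il6st and Il33 in each of the 32 libraries by group, with blue for ND, red for CDAHFD and bars for the mean and SD of 4 libraries. Il6ra was lower on CDAHFD in Cyp2b-null females without overlap and 30.4 to 34.5 CPM in the male group means, and Il33 was at most 1.29 CPM in the ND-fed male libraries.

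The IL-10 family receptors Il10ra, Il10rb and Il22ra1 were called higher in all 4 comparisons. Il10rb, the chain shared by IL-10, IL-22 and type III interferon receptors, rose from 5.71 to 22.6 CPM in WT males (log2 change 1.98, adjusted p = 1.01e-06) and from 11.9 to 22.7 CPM in WT females (log2 change 0.92, adjusted p = 0.00131). Il10ra, the IL-10-binding chain of leukocytes, rose from 2.01 to 10.5 CPM in WT males (log2 change 2.33, adjusted p = 4.36e-05) and from 4.17 to 12.4 CPM in WT females (log2 change 1.55, adjusted p = 0.000419). Il22ra1, the IL-22 receptor of epithelial cells including hepatocytes, was at 12.6, 12.1, 13.2 and 9.34 CPM in ND-fed and 14.5, 16.4, 20 and 27.8 CPM in CDAHFD-fed WT females (log2 change 0.76, adjusted p = 0.0159). The WT female call was lost without replicate 4 of either diet (adjusted p = 0.0684 for ND and 0.101 for CDAHFD), and the call in Cyp2b-null females (log2 change 0.63, adjusted p = 0.0459) was lost in 6 of 8 fits that left out 1 library (adjusted p up to 0.171, without CDAHFD-fed replicate 4). In males it was called without such losses, with log2 changes of 0.76 and 0.78.

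Of the IL-17 receptor family, 0 of 4 tested members were called in females, where 22.3% (WT) and 28.3% (Cyp2b-null) of all genes were called. Il17ra was called higher in both male comparisons (log2 changes 0.99 and 1.09) and Il17rb in WT males (log2 change 0.64, SE 0.19, adjusted p = 0.0130). Of all genes, 17.5% and 19.7% were called higher in WT and Cyp2b-null males. Counts out of 4 are too small to be told apart from these shares. The sex difference was called for 0 of 4 in WT and in Cyp2b-null mice (0.838% and 2.82% of all genes). For Il17ra it was 0.52 and 0.50 on the log2 scale (adjusted p = 0.778 and 0.567). Il13ra1, a chain of the IL-4 and IL-13 receptors, fell in females, by 0.62 on the log2 scale in Cyp2b-null mice (SE 0.15, adjusted p = 0.00461) and by 0.44 in WT mice (SE 0.15, adjusted p = 0.0442). The WT call was lost in 6 of 8 fits that left out 1 library (adjusted p up to 0.143, without CDAHFD-fed replicate 2). Both female calls of Il13ra1 were lost without scaling for composition. In males the log2 changes were -0.30 and -0.06 without a call.

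Few TNF superfamily ligands were detected, and 3 of 13 could be tested in females and 2 in males. Tnfsf12, which encodes TWEAK, the ligand of Tnfrsf12a, was called higher in all 4 comparisons. It was at 3.08, 1.14, 1.89 and 2.36 CPM in ND-fed and 4.10, 3.27, 5.16 and 6.97 CPM in CDAHFD-fed WT males, which did not overlap. The log2 changes were 1.23 (SE 0.37, adjusted p = 0.0145) in WT males, 1.98 (SE 0.36, adjusted p = 0.000188) in Cyp2b-null males, 0.86 (SE 0.26, adjusted p = 0.0221) in WT females and 1.15 (SE 0.27, adjusted p = 0.00268) in Cyp2b-null females. The calls in WT mice were lost without ND-fed replicate 2 or CDAHFD-fed replicate 4 in males (adjusted p = 0.0511 and 0.0591) and without ND-fed replicate 1, 2 or 4 or CDAHFD-fed replicate 4 in females (0.0530 to 0.0878). Tnfsf12 lies beside Tnfsf13 and the antisense Tnfsf13os and wholly within the span of Tnfsfm13, another member. The reads of these genes may not be separated. Tnfsf10, the death ligand TRAIL, was 3.56 to 17.0 CPM over all libraries and had overlapping groups and no call in each comparison.

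TNF receptors were the largest tested group, with 14 of 20 members tested in each sex. None was called lower, and 6 were called higher in WT females, 7 in Cyp2b-null females, 10 in WT males and 9 in Cyp2b-null males, where 12.9%, 15.6%, 17.5% and 19.7% of all genes were called higher. Tnfrsf1a (chromosome 6, 125349723 to 125362483), the main death-domain receptor for TNF, had the highest level per kb of exon of all members in ND-fed WT males (32.3 CPM per kb) and in CDAHFD-fed WT males (42.8 CPM per kb). It was at 67.0, 83.5, 72.9 and 55.2 CPM in ND-fed and 91.6, 95.3, 90.0 and 92.5 CPM in CDAHFD-fed WT males, and in the other sex and genotype pairs too each CDAHFD-fed library was above each ND-fed one. The rise was small, with log2 changes of 0.40 (SE 0.12, adjusted p = 0.0134) in WT males, 0.66 (SE 0.12, adjusted p = 0.000176) in Cyp2b-null males and 0.46 in females of both genotypes (adjusted p = 0.0143 in WT and 0.0119 in Cyp2b-null). The WT calls were lost without ND-fed replicate 2 in females (adjusted p = 0.0571) and ND-fed replicate 4 in males (adjusted p = 0.0525).

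Tnfrsf1b, the TNF receptor of leukocytes and endothelium, rose in males and in Cyp2b-null females. It was at 29.0, 27.3, 32.01 and 31.2 CPM in ND-fed and 42.9, 77.6, 76.4 and 80.5 CPM in CDAHFD-fed WT males, and at 27.6, 71.0, 57.5 and 37.2 CPM in ND-fed and 45.1, 61.7, 56.3 and 61.4 CPM in CDAHFD-fed WT females. The male groups stood apart and the WT female groups overlapped. The log2 changes were 1.22 (SE 0.17, adjusted p = 1.30e-05) in WT males, 1.62 (SE 0.18, adjusted p = 2.85e-07) in Cyp2b-null males, 0.77 (SE 0.22, adjusted p = 0.0103) in Cyp2b-null females and 0.24 (SE 0.21, adjusted p = 0.462) in WT females.

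Tnfrsf12a (chromosome 17, 23675445 to 23677449), which encodes Fn14, the TWEAK receptor induced in injured hepatocytes and progenitor cells, was called higher in all 4 comparisons. In WT females it was at 5.21, 7.41, 5.07 and 5.36 CPM on ND and at 31.1, 18.8, 20.2 and 40.2 CPM on CDAHFD. In Cyp2b-null females it was at 6.08, 9.42, 7.0 and 9.87 CPM on ND and at 20.4, 31.8, 34.3 and 33.8 CPM on CDAHFD, again with no overlap. The log2 changes were 2.29 (SE 0.26) and 1.86 (SE 0.24) in WT and Cyp2b-null females and 1.52 (SE 0.26) and 1.56 (SE 0.26) in WT and Cyp2b-null males, with adjusted p between 1.52e-06 and 0.000136 (edgeR). Ligand and receptor thus both rose in each comparison, with the limit on the reads of Tnfsf12 given above. Per kb of exon Tnfrsf12a stood second among the members in CDAHFD-fed WT females at 26.0 CPM per kb.

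Rarer TNF receptors were near 0 on ND. Tnfrsf11a, the RANK receptor of osteoclast precursors and dendritic cells, went from 0.978 ± 0.455 to 4.98 ± 0.858 CPM in WT males and from 0.962 ± 0.914 to 5.22 ± 1.88 CPM in WT females (SD, n = 4), with log2 changes of 2.34 (SE 0.37, adjusted p = 5.20e-05) and 2.27 (SE 0.49, adjusted p = 0.00171). In Cyp2b-null females its call was lost without CDAHFD-fed replicate 2 (adjusted p = 0.0504). Tnfrsf10b, the TRAIL death receptor, had 5, 0, 0 and 1 counts in ND-fed and 9, 23, 23 and 27 counts in CDAHFD-fed WT females, and 3 against 32 counts over the groups of WT males, a ratio of 10.2 (counting interval 3.21 to 52.3). Tnfrsf13b, the TACI receptor of B cells, had 0 counts in all ND-fed WT female libraries and 4, 4, 9 and 7 in the CDAHFD-fed ones, at least 6.59-fold higher, and its call in WT males was lost in 5 of 8 fits that left out 1 library (adjusted p up to 0.110, without CDAHFD-fed replicate 2). It was not called in Cyp2b-null females (adjusted p = 0.0639) or males (adjusted p = 0.0871). Tnfrsf18, the GITR receptor of regulatory T cells, had 0 to 12 counts per library and no call. Tnfrsf21, the death receptor DR6, was higher in all 4 comparisons, with log2 changes of 0.90 and 0.82 in WT and Cyp2b-null females and 1.81 and 1.67 in males.

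Tnfaip genes, which were named for their induction by TNF and are not one family by structure, had 7 of 8 members tested. Tnfaip3 (chromosome 10, 19000910 to 19015410) encodes A20, the enzyme that shuts off NF-kB signaling. In WT males it was at 1.63, 1.14, 1.62 and 0.859 CPM on ND and at 8.95, 13.1, 13.4 and 14.3 CPM on CDAHFD. In WT females it was at 2.40, 5.46, 5.07 and 2.94 CPM on ND and at 11.1, 13.3, 10.2 and 15.99 CPM on CDAHFD. The CDAHFD-fed levels overlapped between the sexes, the ND-fed ones were lower in males, and no groups overlapped between the diets. The log2 changes were 3.20 (SE 0.38, adjusted p = 1.05e-06) in WT males, 3.46 (SE 0.38, adjusted p = 3.07e-07) in Cyp2b-null males, 1.77 (SE 0.27, adjusted p = 4.21e-05) in WT females and 2.10 (SE 0.28, adjusted p = 9.31e-06) in Cyp2b-null females.

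Tnfaip8 and Tnfaip8l2, lipid-binding proteins of which Tnfaip8l2 (TIPE2) is known to restrain leukocyte receptors, were also higher in all 4 comparisons. Tnfaip8l2 was 0.651 ± 0.320 CPM in ND-fed and 7.03 ± 2.57 CPM in CDAHFD-fed WT males (SD, n = 4, log2 change 3.37, SE 0.45) and 2.58 ± 1.36 and 5.29 ± 0.807 CPM in WT females (SD, n = 4, log2 change 1.15, SE 0.36). The WT female call was lost without replicate 1 or 4 of either diet (adjusted p = 0.0513 to 0.111). Tnfaip8l1, a relative of both, went the other way in Cyp2b-null males, from 32.7 ± 1.14 to 24.7 ± 3.07 CPM (SD, n = 4, log2 change -0.41, adjusted p = 0.0350), a fall that was lost in 6 of 8 fits without 1 library (adjusted p up to 0.130, without CDAHFD-fed replicate 3). In WT males its log2 change was -0.39 (adjusted p = 0.0525), and 3 of 8 fits without 1 library called it. Tnfaip1, an adaptor for ubiquitin ligases, changed by 0.48 to 0.72 on the log2 scale.

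Promoter sequence was taken from RefSeq (GRCm38.p6), which gave 119 windows of 300 bases (250 before and 50 after a start) for 99 of the 125 members. A match to the NF-kB motif (GGG, 2 bases of any kind, TTTCC) on either strand was in 11 of these 119 windows (9.24%) and in 1.63% of all 32851 windows. The AP-1 motif TGANTCA was in 18.5% of member windows and 7.81% of all windows, and the STAT motif TTCNNNGAA in 15.1% and 8.30%. Among the 17 members higher in all 4 comparisons, 12 had a window, and Il1rn and Tnfaip3 were those with an NF-kB match, that of Il1rn falling in the windows of 2 nearby starts. Their bases before the start are shown because these were the inhibitors with the clearest rise and hold the matches, which are in capitals. A match is a description of letters and not of binding, and Il6, which was hardly counted here, also had one. The Il1rn stretch is chr2:24345121-24345370 on the plus strand, before one of the starts that RefSeq gives, and holds GGGTTTTTCC beginning 51 bases before that start. The Tnfaip3 stretch is chr10:19015411-19015660 on the minus strand and holds the AP-1 match TGACTCA beginning at 136 bases and the NF-kB match GGAAATCCCC, read on the opposite strand, beginning at 12 bases before the start.
Il1rn: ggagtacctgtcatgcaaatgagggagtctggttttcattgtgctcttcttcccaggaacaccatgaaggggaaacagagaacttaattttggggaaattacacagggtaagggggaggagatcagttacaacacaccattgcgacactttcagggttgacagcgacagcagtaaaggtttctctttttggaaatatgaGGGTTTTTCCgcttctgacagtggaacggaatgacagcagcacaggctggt
Tnfaip3: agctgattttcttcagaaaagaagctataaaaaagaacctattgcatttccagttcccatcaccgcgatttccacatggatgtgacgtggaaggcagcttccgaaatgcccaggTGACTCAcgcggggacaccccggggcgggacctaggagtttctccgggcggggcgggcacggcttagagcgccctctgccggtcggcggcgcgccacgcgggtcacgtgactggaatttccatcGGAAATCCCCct

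Genes of the same pathways under other symbols were also counted. Of 25 ligands and receptors, 16 were tested, and 4, 8, 8 and 10 were called higher in WT females, Cyp2b-null females, WT males and Cyp2b-null males, with 2, 1, 1 and 1 called lower, against 22.3%, 28.3%, 31.5% and 35.8% of all genes called in either direction. Csf2rb, the beta chain shared by IL-3, IL-5 and GM-CSF receptors, rose from 3.75 to 24.6 CPM in WT males (log2 change 2.72, adjusted p = 1.28e-07) and from 6.59 to 19.6 CPM in WT females (log2 change 1.61, adjusted p = 3.97e-05), and its near copy Csf2rb2 may share its reads. Lifr, the LIF receptor, was the one lower in all 4, from 322 to 104 CPM in WT males (log2 change -1.63, adjusted p = 3.58e-07) and from 292 to 132 CPM in WT females (log2 change -1.15, adjusted p = 0.000120). Of 46 signal transduction genes, all tested in females and 45 in males, 11, 15, 13 and 16 were called higher and 1, 6, 2 and 3 lower in the same order, which in WT mice of both sexes was near the share of all genes. Nfkb2 and Relb, the subunits of the alternative NF-kB dimer, were among those higher, with Nfkb2 at 6.47 against 25.7 CPM (log2 change 1.98, adjusted p = 1.04e-07) and Relb at 1.70 against 10.8 CPM (log2 change 2.68, adjusted p = 2.93e-07) in WT males on ND and on CDAHFD. Nfkb1 and Rela were also called higher in all 4 comparisons. The leukocyte and dendritic cell markers given above moved with these genes, and the part of those cells was not tested.

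Genotype was not called for any member. On CDAHFD, 0 of 59 members in females and 0 of 56 in males differed between Cyp2b-null and WT mice, where 0.0202% and 0.0273% of all genes were called (edgeR), and at an unadjusted p under 0.05 the counts were 3 members in females (5.69% of all genes) and 1 in males (3.52%). On ND the counts were also 0 in both sexes (0.0809% and 0.0341% of all genes), with 5 members in each sex at an unadjusted p under 0.05 (5.72% and 8.09% of all genes). The test for an interaction of diet and genotype gave 0 members in both sexes (0.00674% of all genes in females and 0.00683% in males), with 3 in females and 2 in males at an unadjusted p under 0.05 (6.16% and 5.94% of all genes). DESeq2 likewise called 0 members in each of these 6 comparisons. The SE of a log2 change was about 0.12 for Tnfrsf1a and 0.29 for Il6ra, and differences of more than 1 SE were not called, as given next.

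The members with the smallest genotype p on CDAHFD in females were Il22ra1, Il6ra and Il1r1, all lower in Cyp2b-null mice. For Il6ra the 4 Cyp2b-null libraries, at 9.69 to 26.9 CPM, were all below the 4 WT libraries, at 31.1 to 37.6 CPM (2.88% of all genes did not overlap), with a log2 difference of -0.77 (SE 0.29, adjusted p = 0.864, edgeR). Il22ra1 averaged 19.7 ± 5.91 CPM in WT females against 13.4 ± 3.10 CPM in Cyp2b-null females (SD, n = 4), and Il1r1 averaged 47.5 ± 23.0 against 29.9 ± 10.9 CPM (SD, n = 4), both overlapping. In edgeR fits that left out 1 library the adjusted p for Il6ra was 0.621 to 1, and the log2 difference was -0.55 without CDAHFD-fed Cyp2b-null replicate 3. Without a low-count filter Il6ra and Il1r1 were called (adjusted p = 0.00776 and 0.0420), and under the other alternatives with an adjusted p that of Il6ra was 0.826 to 0.942. The study's 2-step rule, which takes an unadjusted p under 0.05 after a test across all groups, called Il6ra in females and Tnfrsf1a, Il16 and Il17rb in males. The share of all genes called by that rule was not computed. In males the smallest were Tnfsf12, Il17rb and Tnfrsf1a, with log2 differences of 0.67, -0.38 and 0.23 and adjusted p of 1. Tnfrsf1a in CDAHFD-fed males averaged 92.3 ± 2.25 CPM in WT against 108 ± 7.71 CPM in Cyp2b-null mice (SD, n = 4), without overlap, as for 2.57% of all genes.

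The diet response was compared between the sexes in a fit of all 8 groups, in which 60 members were tested. In Cyp2b-null mice it differed for 3 members, Il1rn, Il33 and Il1rap, against 2.82% of all genes, and in WT mice for 0 members against 0.838% of all genes, with 15 WT members at an unadjusted p under 0.05 (9.89% of all genes) and 2 called by DESeq2. The sex difference of the genotype effect on CDAHFD was called for 0 members, against 0.00644% of all genes, and the count was also 0 by DESeq2 and at an unadjusted p under 0.05 (3.23% of all genes). The change of Il1rn was larger in Cyp2b-null males than in females by 2.62 on the log2 scale (adjusted p = 0.00453), with ND-fed Cyp2b-null females at 3.65, 15.8, 4.67 and 9.53 CPM and ND-fed males at 1.31, 0.672, 2.70 and 1.09 CPM. The 8 CDAHFD-fed Cyp2b-null libraries were at 24.2 to 34.3 CPM in both sexes, so the sexes stood apart on ND and overlapped on CDAHFD. Il33 showed the same pattern, with a difference of 1.78 (adjusted p = 0.0344), ND-fed levels of 2.87 ± 0.516 CPM in females and 0.813 ± 0.110 CPM in males, and CDAHFD-fed levels of 4.81 ± 1.18 and 4.79 ± 1.36 CPM (SD, n = 4). Il1rap fell further in males by 0.69 (adjusted p = 0.0341), from 254 ± 14.7 CPM in ND-fed males and 184 ± 10.0 CPM in ND-fed females to 113 ± 10.5 and 134 ± 18.9 CPM (SD, n = 4). The Il1rn difference held in each of 16 fits that left out 1 library (adjusted p up to 0.0273), whereas the Il33 and Il1rap differences were each lost in 8 of 16, with adjusted p up to 0.0985 and 0.0857, in both cases without CDAHFD-fed Cyp2b-null male replicate 3. The Il33 difference was also lost without a low-count filter and the Il1rap difference without scaling for composition. For members called for diet in 1 sex and not in the other, except Il33, the sex difference was thus not called, and that of Il6ra in Cyp2b-null mice was 1.31 (SE 0.39, adjusted p = 0.0557, and 0.0308 by DESeq2). This Il6ra difference was also called by edgeR without scaling, without a filter, with the replicate block and with only the groups compared (adjusted p = 5.99e-06 to 0.0465). Cell markers also differed in their diet response between the sexes. In Cyp2b-null mice Itgam, Cd68, Adgre1 and Csf1r (4 of 6 macrophage and Kupffer cell markers), Ptprc, and Kdr and Pecam1 (2 of 4 endothelial markers) were called, all with a diet effect that was higher in males on the log2 scale, and in WT mice Itgam and Csf1r were. Their part in the member results was not tested. CPM of the sexes come from separately scaled tables, and the differences from the joint fit.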

How the data were processed

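Liver RNA of mice was sequenced in 32 libraries as paired 150-base reads, with RNA integrity numbers above 8. According to the methods and the submitters' processing notes, the authors checked reads with FastQC, trimmed them with Trimmomatic, aligned them to GRCm38.p6 with GSNAP, counted them per gene with featureCounts of Subread and tested them with edgeR. The versions and the strand setting are not given in the sources used here. The deposited values are raw counts per gene, in 1 table for each sex, and each column was matched to a sample by its name.

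Both tables were read as deposited, and 0 columns of per-sample values were left out. Each sex was fitted separately (16 libraries, 4 groups) with edgeR 4.0.16 in R 4.3.3 (limma 3.58.1), with TMM scaling, a filter that kept genes with 1 CPM or more in 4 or more libraries, and the quasi-likelihood test, which gave 14826 genes in females and 14651 in males. Calls are adjusted p-values (Benjamini-Hochberg over all genes of the fit) under 0.05, and the SE is the log2 change divided by the square root of F. Sex differences came from a fit of all 8 groups (15521 genes). Counting intervals and the floor of 3 counts (0.245 to 1.17 CPM at totals of 2906410 to 10167000) cover counting error only. Promoters and positions were read with Python 3.11.15 and pandas 2.3.3, and plots were drawn with matplotlib 3.10.9. The scripts were tested on simulated data.

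The members and lists were chosen with earlier results of these data known. The 34 members named with values were, for each diet comparison, the 6 called members with the largest rise and the 4 with the largest fall at a mean of at least 1 CPM in a group, every member called for genotype, interaction or sex difference, the 3 with the smallest genotype p on CDAHFD in each sex, and 18 fixed members. Il10ra, Il10rb, Il16, Il17ra, Il18bp, Il2rg, Il34, Tnfaip1, Tnfaip8 and Tnfrsf21 fell outside that rule and were named after their values were seen. Alternatives were DESeq2 1.42.0, RLE scaling, no scaling, no filter, filterByExpr, a replicate block, only the groups compared, the 2-step calling rule (all groups first, then an unadjusted p) and leaving out each library. The replicate numbers did not pair libraries: correlations of same-numbered deviations from the group means were -0.152 to 0.242, and no comparison had every pair above 0.1.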

Additional observations from a re-analysis of the deposited data

Results flagged for a closer look

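In 203 groups of 4 libraries, 1 library lay far from the other 3 in 12 cases, where chance gives about 1 in 20. On the high side, Il1rl2 was at 3.14 CPM in replicate 2 of the CDAHFD-fed WT females (others 0.816 to 0.96 CPM) and Il15ra at 15.6 CPM in replicate 1 of the ND-fed WT males (others 10.4 to 11.2 CPM). Tnfaip8l2 was at 8.79 CPM in replicate 3 of the CDAHFD-fed Cyp2b-null females (others 4.61 to 5.16 CPM), and Il22ra1 at 11.2 CPM in replicate 4 of the ND-fed Cyp2b-null females (others 7.29 to 7.82 CPM). Tnfrsf1a was at 79.2 CPM in replicate 3 of the ND-fed Cyp2b-null males (others 64.4 to 65.6 CPM), and Tnfrsf12a at 7.41 CPM in replicate 2 of the ND-fed WT females (others 5.07 to 5.36 CPM).

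On the low side, Il6st was at 53.1 CPM in replicate 3 of the CDAHFD-fed Cyp2b-null females (others 112 to 115 CPM), a library that also stood apart from the others of its group over all genes. Tnfrsf1b was at 42.9 CPM in replicate 1 of the CDAHFD-fed WT males (others 76.4 to 80.5 CPM). Il7r was at 3.11 CPM in replicate 1 of the CDAHFD-fed WT females (others 5.76 to 5.92 CPM) and at 2.36 CPM in replicate 4 of the CDAHFD-fed Cyp2b-null females (others 4.65 to 4.77 CPM). In replicate 1 of the ND-fed Cyp2b-null males, Il18 was at 6.67 CPM (others 10 to 10.5 CPM) and Il13ra1 at 32.8 CPM (others 38.7 to 39 CPM).

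The diet effect differed between the sexes in Cyp2b-null mice for Il1rn by 2.62, for Il33 by 1.78 and for Il1rap by -0.69 (log2, male minus female, called in the edgeR fit of all 8 groups).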

How the results depend on the processing

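With 4 libraries per group and totals of 2906410 to 10167000 counts, members under the floor could not be compared. DESeq2 and RLE scaling reversed 0 results of named members. The 2-step rule called 3 members for genotype on ND and 1 on CDAHFD in females, and 2 and 3 in males. On CDAHFD these were Il6ra in females and Tnfrsf1a, Il16 and Il17rb in males. The last step of this rule uses an unadjusted p. The share of all genes that it called was not computed, so these calls cannot be told apart from background. Without a low-count filter, 1 and 2 members were called for genotype on ND and CDAHFD in females, and 6 for the sex difference in each genotype. DESeq2 called 2 sex differences in WT mice, and a fit of only the groups compared called 6 in Cyp2b-null mice. For these alternatives too, the shares of all genes called for genotype and sex difference were not computed. Counting only members that passed in ND-fed libraries, an alternative chosen after seeing the data, gave 24 in WT and 23 in Cyp2b-null males. The causes were not tested beyond the genes and libraries each alternative uses.

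Leaving out 1 library gave 18 to 23 calls for diet in WT females, 22 to 26 in Cyp2b-null females, 32 to 41 in WT males and 32 to 36 in Cyp2b-null males, and 0 to 0 for genotype and interaction in both sexes and for the sex difference of genotype. The sex difference of diet had 0 to 4 calls in WT mice, with 4 without CDAHFD-fed WT male replicate 1, and 1 to 5 in Cyp2b-null mice, with 1 without ND-fed female replicate 1 and 5 without CDAHFD-fed male replicate 2. Without ND-fed WT male replicate 2, 34 members were called for diet in WT males.

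The replicate numbers did not pair libraries. With the replicate block, 25 and 24 members were called for diet in WT and Cyp2b-null females and 37 and 34 in males, 4 for the sex difference in Cyp2b-null mice and 0 in the other comparisons.

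Without scaling for composition, the share of diet calls that were higher over all genes moved from 57.9% to 89% in WT females, 55.4% to 86% in Cyp2b-null females, 55.5% to 90.1% in WT males and 55.1% to 86.5% in Cyp2b-null males. In the same order, the members called lower went from 3, 3, 3 and 4 to 0, 1, 1 and 1, so most called falls depended on the scaling. Log2 changes that turned positive there, none of them called under TMM, were 0.31 for Il15ra and 0.32 for Il6st in WT females, 0.007 for Il18 and 0.13 for Il15ra in Cyp2b-null females, 0.089 for Il13ra1, 0.31 for Il15ra, 0.003 for Tnfaip8l1 and 0.36 for Il6st in WT males, and 0.008 for Il11ra1, 0.305 for Il13ra1 and 0.24 for Il6ra in Cyp2b-null males. Small uncalled changes also turned with other settings. Il11ra1 in Cyp2b-null females was -0.004 without a filter and -0.003 with the replicate block, and Il6st in WT females was 0 with filterByExpr and 0.024 with the block. Without 1 library, the log2 change ran from -0.109 to 0.119 for Il15ra and -0.125 to 0.065 for Il6st in WT females, and from -0.186 to 0.171 for Il11ra1, -0.24 to 0.004 for Il15ra and -0.083 to 0.406 for Tnfsf10 in Cyp2b-null females. It ran from -0.145 to 0.341 for Il6ra, -0.38 to 0.058 for Il15ra, -0.173 to 0.077 for Il6st and -0.022 to 0.333 for Tnfsf10 in WT males, and from -0.154 to 0.03 for Il13ra1 and -0.018 to 0.189 for Il17rb in Cyp2b-null males.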
